A study of Homo sapiens with 18 samples.

Results

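The peaks of H3K27ac and CTCF at the loci of the MYC family, MYC, MYCN and MYCL, and of the long noncoding RNA gene PVT1 beside MYC were examined in HEK293T cells. A peak was a member when it shared at least 1 bp with a window, whatever its values, although the loci themselves were picked with earlier results of these data known. Each of 4 gene windows held the gene body of the GENCODE annotation (hg38) and 50 kb on either side. The other window, called the 2.5 Mb window here, was chr8:126500001-129000000 around MYC and PVT1. Of 506359 peaks in the 12 libraries, 256 were members. Peaks of one antibody that touched each other in different libraries were joined into regions, which gave 24 H3K27ac and 42 CTCF regions, 66 of 125367 in all. HEK293T is a transformed human embryonic kidney cell line. Untreated cells (CTRL) were compared with cells kept for 1 day in 1 mM valproic acid (VPA), a drug that blocks histone deacetylases. Each antibody had 3 CTRL and 3 VPA libraries, and 6 input libraries of the 18 samples were not analysed here. All groups share the same line, whose transformation the controls carry too, and no source states that the libraries of a group came from separate cultures, so p-values measure the spread between libraries, which may be technical.

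MYC, MYCN and MYCL encode transcription factors that pair with MAX, bind DNA at E-boxes and drive growth and proliferation genes. MYC is active in most dividing cells, MYCN is best known from the nervous system and neuroblastoma, and MYCL from lung. PVT1 lies downstream of MYC and is known to compete with MYC for enhancers and to be gained together with it in tumours. H3K27ac, the acetylation of a lysine in the tail of histone H3, marks active promoters and enhancers. CTCF is a zinc finger protein that anchors chromatin loops, and a site just upstream of MYC is known as a docking point for its enhancers.

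The sequences below show a stretch before MYCN that regions of both readouts covered, and sites inside CTCF regions beside MYCN and MYCL. The 250 bases before the start of MYCN (RefSeq, GRCh38.p14, chr2:15940300-15940549, plus strand) lay inside both an H3K27ac region and a CTCF region. The summits of both regions, in the library with the highest fold, lay upstream of this stretch, at chr2:15940215 for H3K27ac and chr2:15939861 for CTCF. A region joins the peaks of several libraries, so the peak of a single library need not reach this stretch. The first bases of this stretch belong to an exon of the antisense gene MYCNOS. The capitals mark the letters GCGCGAAA, the core of an E2F site, which were searched on both strands with the sequence in view and occurred in 0.439% of 35116 RefSeq promoters over the same 250 bases.
MYCN promoter: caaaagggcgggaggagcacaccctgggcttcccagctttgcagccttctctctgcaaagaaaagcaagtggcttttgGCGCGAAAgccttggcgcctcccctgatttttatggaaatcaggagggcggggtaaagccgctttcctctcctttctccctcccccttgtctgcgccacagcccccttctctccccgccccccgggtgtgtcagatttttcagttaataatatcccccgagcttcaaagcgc
The E-box CACGTG, searched on both strands in the 300 bases that RefSeq gives for a promoter, was found in 7.26% of all promoters and in neither of the 2 members with such an entry, MYCN and MYCL. The MYCN stretch held 57.2% G and C, close to the median of 58.0% over all promoters, and the MYCL stretch 74.4%. The RefSeq start of MYCL lies 339 bp from the GENCODE start used for the regions and distances below, while those of MYCN are the same.

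CTCF regions were searched within 100 bp of their summits for the HOMER CTCF motif of 20 positions on both strands. The capitals mark the motif placement, with 5 bases of hg38 on either side in lower case.
MYCN intron site (chr2:15943478-15943507, minus strand, 4 mismatches): ctcgcATATCGCCGCCTGCTGGCCAcgcac
MYCL start site (chr1:39902399-39902428, plus strand, 5 mismatches): agggaAACGCGCCACCTGGCGGCCCtcagc
MYCL upstream site (chr1:39919666-39919695, minus strand, 6 mismatches): agactGGGTTTCCCTCTAGTGGACAgaatt
Of the 42 CTCF member regions, 13 (31.0%) had a placement with at most 5 mismatches, against 21.4% of 69985 CTCF regions and 1.36% of the windows of the same length 2 kb away. With at most 6 mismatches the numbers were 23 (54.8%), 42.7% and 7.37%. The CTCF region over the MYCN promoter had no placement with fewer than 8 mismatches.

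The lists held 26299 to 40992 H3K27ac and 36469 to 58782 CTCF peaks per library, and read totals are unknown. The background coverage recovered from the peak values, a measure of relative depth, was 3.51 to 3.95 fragments in all libraries. Libraries numbered 1 of each antibody and treatment stood apart. In them, 21.3% to 31.9% of the peaks lay where local and genome-wide background were equal, against 3.48% to 13.6% in the other libraries. At the 7 H3K27ac member regions found in all 6 libraries, the local background was 10.8 times the genome-wide level in the median of the libraries numbered 1, and 2.51 and 2.65 times in those numbered 2 and 3. H3K27ac fold enrichment, which the authors' peak caller took over the local background, was low at promoters in the libraries numbered 1. The values of each library are therefore given, and for the H3K27ac regions found in every library the log2 fold change also without number 1. CTCF in the libraries numbered 1 varied between regions. At 1.3 kb upstream of MYC, CTRL library 1 had the highest CTRL fold (76.0) and VPA library 1 the lowest VPA fold (47.1). At 9.5 kb upstream those libraries had the lowest folds (5.58 and 13.0), with local background at the genome-wide level. The cause was not tested. H3K27ac regions lay at the starts of VIM, KRT8, KRT18, PAX2 and CDH2 in all 6 libraries, and no region lay at those of PTPRC, CD3E, ALB, HBB or INS, which mark other cell types.

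VPA-treated libraries had more H3K27ac peaks around PVT1 and more bases under H3K27ac peaks around PVT1 and MYCL, and neither difference passed the test. The direction around PVT1 turned when the lists, which are longer in VPA, were cut to equal length. In the window of MYC the H3K27ac peak number was 1 in the 3 CTRL libraries and 2, 1 and 1 in the VPA libraries. The windows of MYC and PVT1 overlap, so they are not separate. The additional peak of VPA library 1 lay in both, 51.7 kb from the start of MYC. Around PVT1 it was 3 in every CTRL library and 9, 5 and 5 with VPA. The groups did not overlap there, and their means were 3 ± 0 and 6.33 ± 2.31 (SD, n = 3, p = 0.100 and adjusted p = 0.667 in the two-sided exact permutation test over 20 window tests). A p of 0.100 is the smallest that 3 against 3 libraries can give. Without the libraries numbered 1 the means were 3 and 5. At equal list lengths the difference, VPA minus CTRL, was -1.67 peaks, against 3.33 with the full lists. For MYCL the CTRL libraries had 4, 5 and 3 peaks and the VPA libraries 4, 7 and 5, which overlapped. For MYCN the CTRL libraries had 0, 2 and 2 and the VPA libraries 0, 1 and 1. For the 2.5 Mb window the CTRL libraries had 6, 8 and 7 and the VPA libraries 12, 10 and 8, which met at 8. Thus 1 of 4 gene windows had more peaks in every VPA than in every CTRL library, and none had fewer, against 21.4% and 0.152% of 19111 windows of protein-coding genes built the same way. Among 1082 consecutive windows of 2.5 Mb on the autosomes, 60.4% had more peaks in every VPA library. PVT1 is 393 kb long, against 6.46 to 7.52 kb for the other members, and the windows of protein-coding genes were not matched for length.

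**Figure D1:**
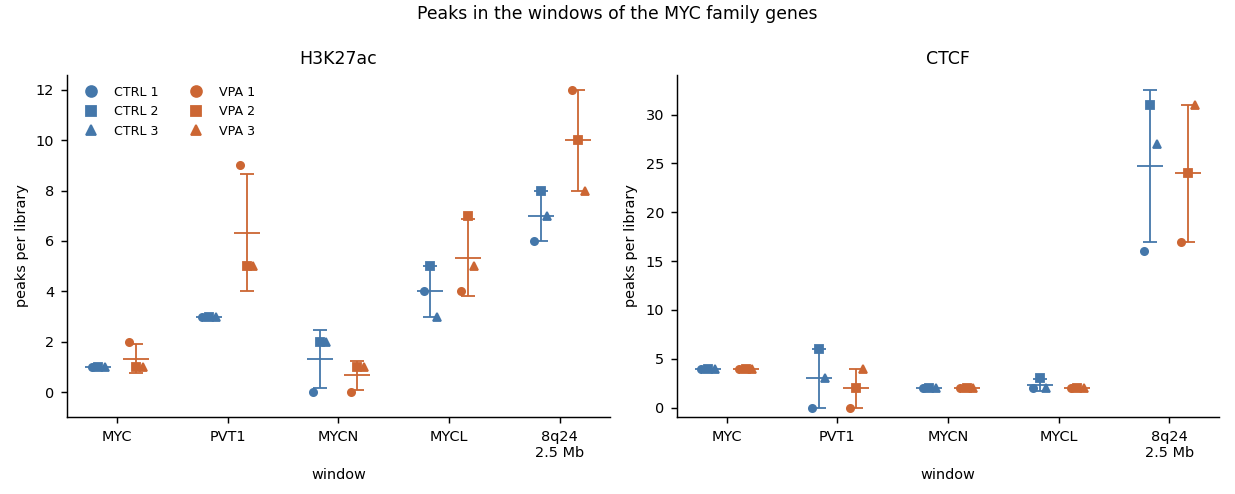
Peaks per library in the windows of MYC, PVT1, MYCN and MYCL and in the 2.5 Mb window (8q24), for H3K27ac (left) and CTCF (right). Points are libraries by number, horizontal lines are means and error bars are SD (n = 3). H3K27ac around PVT1 is the only window where the 3 VPA libraries lie above the 3 CTRL libraries.

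With the full lists the covered length had the same order around PVT1. H3K27ac peaks covered 4073, 4694 and 4291 bp of that window in CTRL and 6583, 7034 and 5334 bp in VPA, with means of 4353 ± 315 and 6317 ± 881 bp (SD, n = 3). Around MYCL they covered 3640, 5144 and 4574 bp in CTRL and 6127, 9101 and 8214 bp in VPA, with means of 4453 ± 759 and 7814 ± 1527 bp. Each of these differences gave p = 0.100 and adjusted p = 0.667 in the exact permutation test, and neither passed it. At equal list lengths the difference was -841 bp around PVT1, against 1964 bp with the full lists, and 2068 bp around MYCL, against 3361 bp. Apart from the region at the start of MYCL, the H3K27ac regions of the MYCL window had their summits in the neighbouring gene TRIT1. Their share of the difference was not computed. Around MYC the covered length was 4180, 4957 and 4959 bp in CTRL and 4245, 5494 and 5314 bp in VPA, higher in VPA within each replicate number, and the groups overlapped. Covered length was thus higher in every VPA library in 2 of 4 gene windows, against 36.6% of the windows of protein-coding genes, and lower in none, against 0.105%. Such an order was thus common among all genes in these data, although window length was not matched here either.

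Of the 24 H3K27ac member regions, 12 were found in more VPA than CTRL libraries, 4 in more CTRL than VPA libraries and 8 in equal numbers of both. Of these 8, 7 had a peak in every library, and the last was the start of MYCN. Over all H3K27ac regions, 51.4% were found in more VPA and 7.64% in more CTRL libraries. The starts of MYC, MYCL, PVT1, LRATD2 and TRIT1 were among the 7. LRATD2 lies at the far end of the 2.5 Mb window, and TRIT1, which encodes a tRNA-modifying enzyme, is a neighbour of MYCL.

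**Figure D2:**
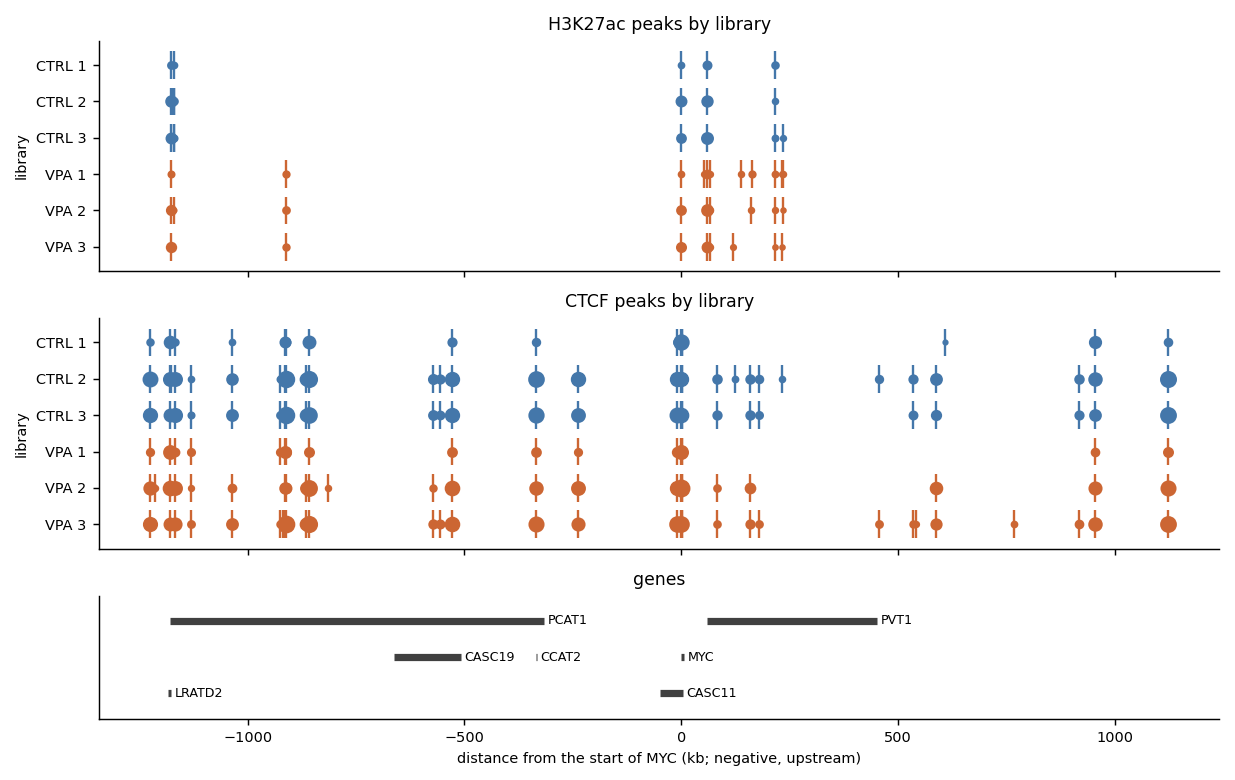
Regions with a peak in each library by distance of the region's summit from the start of MYC (kb), H3K27ac at the top, CTCF in the middle and genes at the bottom. A tick is a region with a peak in that library, and its dot grows with log2 fold enrichment. The H3K27ac ticks lie at LRATD2, inside PCAT1, at MYC and along PVT1, and the ticks inside PVT1 are more numerous in the VPA rows.

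The H3K27ac region at the start of MYC (chr8:127734202-127739695) spanned the gene's first exon and the start of the antisense gene CASC11. Its fold enrichment was 3.68, 16.0 and 10.8 in CTRL and 3.63, 10.7 and 11.8 in VPA. The groups overlapped, and the libraries numbered 1 were the lowest of each. The log2 fold change, VPA over CTRL, was -0.15 (SE 0.63, adjusted p = 1.00 in limma, n = 3). The recovered fragments over the summit, relative to the genome-wide background, were 51.3, 47.2 and 37.1 in CTRL and 37.8, 28.9 and 38.2 in VPA. On this scale the local background does not enter, and the libraries numbered 1 were no longer the lowest. The log2 difference was -0.37 (SE 0.21, adjusted p = 0.202 in limma), against a median of -0.28 over all regions tested. Relative to that median the start of MYC differed by less than its SE.

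At the start of PVT1 (chr8:127793907-127797390) fold enrichment was 8.09, 18.7 and 22.9 in CTRL and 7.72, 21.1 and 15.5 in VPA, with a log2 fold change of -0.15 (SE 0.71, adjusted p = 1.00 in limma). Its summit fragments over background were 78.8, 61.7 and 65.3 in CTRL and 66.9, 44.3 and 50.2 in VPA. At the start of LRATD2, where PCAT1 also begins (chr8:126555627-126559232), fold enrichment was 5.50, 19.8 and 16.1 in CTRL and 4.12, 12.3 and 13.2 in VPA (log2 fold change -0.46, SE 0.67, adjusted p = 1.00 in limma). The fold values overlapped at both genes. The fragments at LRATD2 were 75.2, 56.7 and 57.3 in CTRL and 53.6, 34.2 and 35.2 in VPA, so that every VPA library lay below every CTRL library (log2 difference -0.64, SE 0.23, adjusted p = 0.0510 in limma).

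At the start of MYCL (chr1:39900631-39902613) fold enrichment was 4.65, 15.6 and 14 in CTRL and 4.03, 10.7 and 12.5 in VPA (log2 fold change -0.31, SE 0.64, adjusted p = 1.00 in limma). Summit fragments over background were 87.4, 58.5 and 59.9 in CTRL and 61.5, 42.0 and 44.8 in VPA, lower in VPA within each number but overlapping between the groups. At the start of TRIT1 (chr1:39882128-39884519) fold enrichment was 6.73, 22.3 and 20.6 in CTRL and 7.62, 21.8 and 20.3 in VPA. These values differed by less than the spread between libraries (log2 fold change 0.04, SE 0.72, adjusted p = 1.00 in limma). Without the libraries numbered 1 the log2 fold changes at the starts of MYC, PVT1, LRATD2, MYCL and TRIT1 were -0.22, -0.19, -0.48, -0.36 and -0.02, and their adjusted p-values in limma 0.680, 0.696, 0.279, 0.456 and 0.967.

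The start of MYCN differed from those of MYC and MYCL in that neither library numbered 1 had a peak there. The region (chr2:15939681-15942939) covered the promoter shown above, the first exon of MYCN and the start of MYCNOS. Its fold enrichment was 5.03 and 4.07 in CTRL libraries 2 and 3 and 6.15 and 4.40 in VPA libraries 2 and 3. The 2 CTRL libraries had 2 peaks each and the 2 VPA libraries 1 longer peak each, with 2194 and 1999 bp covered in CTRL and 3259 and 2355 bp in VPA. Summit fragments over background were 11.3 and 9.41 in CTRL and 14.7 and 15.6 in VPA. With 2 libraries in each group the region was not tested. A library without a peak gives no local background, so that of the libraries numbered 1 is unknown at MYCN. It was higher in them at the other gene starts, and its part in the absence was not tested.

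The promoters were ordered by the rank of their −log10 q-value among the peaks of a library, as the percentage of peaks at or below it. The mean rank was 76.8 at TRIT1, 74.6 at PVT1, 69.7 at MYCL, 69.3 at LRATD2, 64.4 at MYC and 45.6 at MYCN. MYC ranked at 53.2, 65.9 and 61.2 in CTRL and 62.6, 70.5 and 73.1 in VPA. MYCL ranked at 62.7, 68.3 and 68.6 in CTRL and 69.5, 74.0 and 75.0 in VPA. MYCN, where it had a peak, ranked at 39.4 and 30.1 in CTRL and 59.3 and 53.7 in VPA. The ranges of neighbours in this order overlapped over the 6 libraries, and MYCN was below MYC within each library that had both. The VPA lists are longer, so that a rank in them is taken over more weak peaks.

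**Figure D3:**
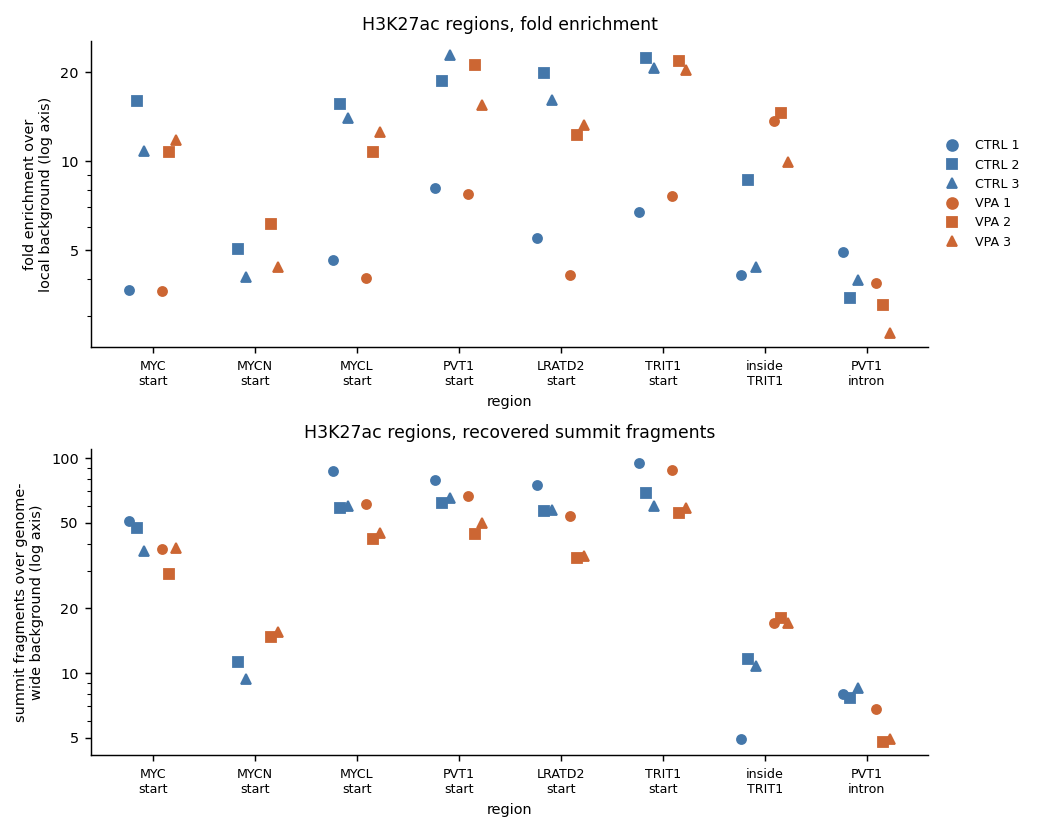
H3K27ac at 8 member regions by library, as fold enrichment over local background (top) and as recovered summit fragments over the genome-wide background (bottom), both on log axes. Points are libraries, blue for CTRL and orange for VPA, and a library without a peak has no point. At the region inside TRIT1 all VPA points lie above all CTRL points on both axes, and the libraries numbered 1 are lowest at promoters on the upper axis only.

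A region inside TRIT1 stood apart among the members (chr1:39851546-39853932), in the flank downstream of MYCL. Its fold enrichment was 4.11, 8.64 and 4.40 in CTRL and 13.7, 14.5 and 9.91 in VPA. Every VPA library lay above every CTRL library. The log2 fold change was 1.22 (SE 0.58) with an adjusted p of 1.00 in limma without the replicate number, and with the number as a block the SE was 0.24 and the adjusted p 0.00444. Summit fragments over background were 4.96, 11.6 and 10.8 in CTRL and 17.1, 18.0 and 17.2 in VPA (log2 difference 1.03, SE 0.27, adjusted p = 0.0163 in limma). Without the libraries numbered 1 the log2 fold change was 0.96 and the adjusted p 0.0535. The region had no CTCF region over it and no annotated start within 1 kb, and the local background in it was 1.00 to 2.24 times the genome-wide level.

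This was 1 of 7 member regions with fold enrichment higher in every VPA library, against 4.53% of 18407 regions found in all 6 libraries, and none was lower in every VPA library, against 1.56%. For summit fragments 1 of the 7 was higher, against 9.93%, and 2, at LRATD2 and in an intron of PVT1, were lower, against 28.1%. In limma on fold enrichment no H3K27ac region of the genome passed an adjusted p of 0.05 in either direction (0% and 0%), and 301 had an unadjusted p under 0.05. With the replicate block, 4.73% rose and 11.8% fell, and among the 7 the region inside TRIT1 rose and none fell. With summit fragments 4.04% rose and 13.3% fell, and the same region was the only one of the 7 to pass. With fragments and the block together 12.2% rose and 53.7% fell over the genome. The region inside TRIT1 then rose (adjusted p = 1.53e-06 in limma), and the other regions that passed fell: the starts of MYC (0.00485), PVT1 (6.18e-04), LRATD2 (9.22e-08) and MYCL (1.87e-05), and the PVT1 intron (0.0177). The start of TRIT1 did not pass (0.132). Without the libraries numbered 1, 2.28% rose and 7.70% fell on the fold scale, and none of the 7 was among them.

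Weaker H3K27ac regions lay inside PVT1 and upstream of MYC, and several were found in VPA libraries alone. In an intron of PVT1 a region at chr8:127800384-127801714 had a peak in the 3 VPA libraries and in no CTRL library, with fold enrichment of 3.16, 3.47 and 3.34. A region inside PCAT1, at -910 kb from the start of MYC (chr8:126824602-126825304), had a peak in the 3 VPA libraries, with fold enrichment of 4.49, 5.25 and 4.64. It overlapped a CTCF region that was found in all 6 CTCF libraries. One region went the other way. At chr8:126564999-126565833, 6.71 kb from the start of LRATD2, fold enrichment was 3.67, 5.10 and 2.48 in CTRL and no VPA library had a peak. Of 24 member regions, 2 were thus found in all VPA and no CTRL libraries, against 4.12% of 55382 H3K27ac regions, and 1 in all CTRL and no VPA libraries, against 0.139%. When the lists were cut to equal length, no region kept the first pattern, and with peaks under a −log10 q-value of 3 left out none kept the second.

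The other H3K27ac regions inside PVT1 that are named here had fold enrichment under 5 in every library with a peak. The region at chr8:127950279-127952412 had fold enrichment of 4.95, 3.45 and 3.96 in CTRL and 3.89, 3.26 and 2.62 in VPA (log2 fold change -0.34, SE 0.37, adjusted p = 1.00 in limma, and -0.34 without the libraries numbered 1), and its groups overlapped. Between MYC and PVT1, a region at chr8:127787041-127787427 had a peak in VPA library 1 alone, with a fold enrichment of 3.13. At an internal start of PVT1 (chr8:127853996-127854726) VPA library 3 alone had a peak, with a fold enrichment of 3.06. At chr8:127899421-127899865 VPA library 1 alone had one, with a fold enrichment of 4.49. At chr8:127968019-127968522 VPA libraries 1 and 3 had peaks, of 2.99 and 2.49, and no CTRL library did. In the window of PVT1, 7 of 10 H3K27ac regions had a peak in VPA libraries only, against 39.4% of all H3K27ac regions, and 5 of the 10 in a single library, against 30.4%. Inside TRIT1, regions at chr1:39868399-39869980 and chr1:39879738-39881423 each had peaks in 2 VPA and no CTRL libraries, with fold enrichment of 2.05 and 2.87 and of 3.32 and 3.52. A peak list holds only what passed the caller's threshold, so the signal in the other libraries at these places is unknown.

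CTCF peak numbers did not separate the treatments at any of the loci. The window of MYC held 4 CTCF peaks and that of MYCN 2 in all 6 libraries. For MYCL every library had 2, except CTRL library 2 with 3. For PVT1 the CTRL libraries had 0, 6 and 3 and the VPA libraries 0, 2 and 4, so those numbered 1 had none. For the 2.5 Mb window the CTRL libraries had 16, 31 and 27 and the VPA libraries 17, 24 and 31, with means of 24.7 ± 7.77 and 24 ± 7 (SD, n = 3, exact permutation p = 1.00). No gene window was higher or lower in every VPA library, against 0.351% and 1.13% of the windows of protein-coding genes. No CTCF member region was found in all libraries of one treatment and none of the other, against 0.186% of 69985 CTCF regions for VPA and 0.326% for CTRL. Of the 42 regions, 18 were found in all 6 libraries, and 11 overlapped an H3K27ac region (26.2%, against 28.4% of all CTCF regions).

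The strongest CTCF region of the MYC window lay 1.3 kb upstream of the start of MYC (chr8:127733650-127734532), on the side where the enhancer docking site is known. Its fold enrichment was 76.0, 52.9 and 59.7 in CTRL and 47.1, 130 and 83.4 in VPA. Its motif placement had 5 mismatches, and its summit lay inside an intron of CASC11. The groups overlapped (log2 fold change 0.36, SE 0.47, adjusted p = 1.00 in limma). The log2 fold change was 0.89 without the libraries numbered 1, 0.01 without VPA library 2 and -0.18 for summit fragments. A second region 9.5 kb upstream (chr8:127725145-127726563) had 5.58, 52.6 and 66.0 in CTRL and 13.0, 52.7 and 81.6 in VPA, with the libraries numbered 1 far below the others in both groups. The 2 regions inside MYC were weaker. At chr8:127735888-127736644 fold enrichment was 6.88, 11.6 and 15.4 in CTRL and 7.09, 14.3 and 10.3 in VPA. At chr8:127737451-127738238 it was 7.35, 19.3 and 16.1 in CTRL and 10.9, 11.0 and 10.6 in VPA. Both lay inside the H3K27ac region at the start of MYC, and their closest motif placements had 8 and 7 mismatches.

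MYCN carried 2 strong CTCF regions, although its H3K27ac was the weakest of the gene starts. The region over the promoter (chr2:15939340-15940657) had fold enrichment of 39.5, 58.1 and 67.7 in CTRL and 58.4, 90.6 and 48.2 in VPA, which overlapped. The region in an intron, with the MYCN intron site above (chr2:15942737-15943946), had 58.7, 41.8 and 62.7 in CTRL and 95.2, 100 and 66.6 in VPA. Every VPA library lay above every CTRL library there, with a log2 fold change of 0.68 (SE 0.41, adjusted p = 1.00 in limma). Summit fragments over background were 276, 148 and 149 in CTRL and 470, 214 and 184 in VPA, which overlapped. At MYCL the region with the start site (chr1:39901678-39902893) had fold enrichment of 29.4, 34.5 and 44.8 in CTRL and 39.9, 38.2 and 33.2 in VPA. The region with the upstream site, 17.4 kb before the start (chr1:39919110-39920437), had 21.8, 37.8 and 38.3 in CTRL and 7.72, 46.4 and 43.8 in VPA. A weak region at chr1:39917807-39918148 was found in CTRL library 2 alone, with a fold enrichment of 5.17.

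**Figure D4:**
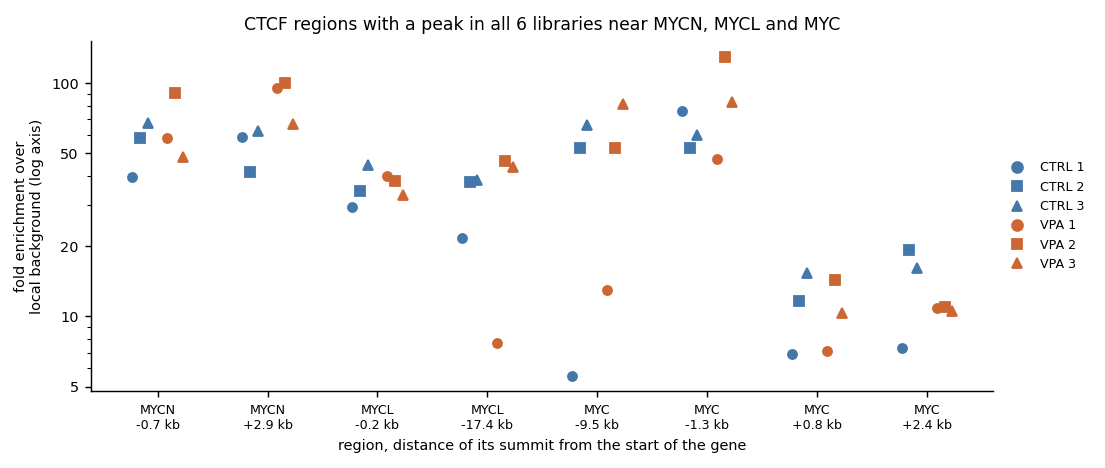
Fold enrichment of CTCF (log axis) by library at the 8 regions near MYCN, MYCL and MYC that had a peak in all 6 libraries, labelled by the distance of the summit from the gene's start (kb, negative upstream). Points are libraries, blue for CTRL and orange for VPA. The groups overlap at 7 of the 8 regions and not at the MYCN region 2.9 kb past the start.

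Along the 2.5 Mb window the strongest CTCF regions after that of MYC lay inside PCAT1. At chr8:126876319-126877347, beside an internal start of PCAT1, fold enrichment was 32.2, 96.8 and 82.6 in CTRL and 11.5, 89.3 and 98.3 in VPA. At chr8:126823807-126825195, under the H3K27ac region found in VPA libraries alone, it was 7.95, 109 and 113 in CTRL and 12.4, 16.0 and 119 in VPA. VPA library 2 there lay near the libraries numbered 1 and not near VPA library 3, and the log2 fold change was -0.68 (SE 1.26, adjusted p = 1.00 in limma). It was -0.26 without that library and -1.35 without the libraries numbered 1. At the start of LRATD2 (chr8:126556039-126557155) it was 28.4, 47.7 and 32.0 in CTRL and 43.8, 58.6 and 32.4 in VPA. At an internal start of CASC19 (chr8:127206739-127207626) it was 8.81, 52.2 and 52.3 in CTRL and 10.9, 58.6 and 56.9 in VPA. Over CCAT2 (chr8:127400437-127401492) it was 6.66, 84.1 and 73.4 in CTRL and 10.5, 39.1 and 69.1 in VPA. In each of these regions the range of the libraries of one group exceeded the difference between the group means. Regions at 3 other starts were weaker and not found in all libraries. At the start of ENSG00000286034 (chr8:128322517-128323187) fold enrichment was 21.8 and 12.7 in CTRL libraries 2 and 3 and 28.4 and 18.0 in VPA libraries 2 and 3. At another internal start of CASC19 (chr8:127178494-127179070) it was 8.92 and 7.57 in CTRL libraries 2 and 3 and 8.28 in VPA library 3. Beside the start of LRATD2 (chr8:126558314-126558743) CTRL library 2 alone had a peak, of 3.58.

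CTCF in the window of PVT1 was weak, and none of its 6 regions was found in all libraries. The highest (chr8:127894567-127895203) had fold enrichment of 9.47 and 9.32 in CTRL libraries 2 and 3 and 14.8 and 9.02 in VPA libraries 2 and 3. The next (chr8:127818057-127818672) had 9.95 and 9.15 in CTRL and 5.18 and 5.11 in VPA, in the same libraries. The third (chr8:127914341-127914955) had 6.99 and 5.78 in CTRL libraries 2 and 3 and 5.27 in VPA library 3. A region at an internal start of PVT1 (chr8:127860086-127860426) was found in CTRL library 2 alone, with 3.74. Of the 18 CTCF member regions found in all libraries, 1 was higher in every VPA library on the fold scale, against 3.87% of 27794 such regions, and none was lower, against 2.24%. For summit fragments none was higher or lower, against 0.281% and 1.85%. In limma no CTCF region passed in either direction over the genome (0% and 0%, with 254 at an unadjusted p under 0.05), and none did with the replicate block or with summit fragments.

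The partners and regulators of MYC were described by the H3K27ac regions at their starts, for a list of 16 genes: MAX, its partner, the repressors and relatives MNT, MGA, MLX, MLXIP, MLXIPL, MXD1, MXD3, MXD4 and MXI1, the cofactors TRRAP, KAT5, WDR5 and ZBTB17, and FBXW7 and AURKA, which act on the stability of MYC proteins. All 16 had a region in all 6 libraries. In limma on fold enrichment 0 of 16 rose and 0 fell, with a median log2 fold change of -0.13 against -0.26 over 11105 regions at protein-coding starts. With the replicate block 3 fell and none rose, against 15.7% and 1.62% of those regions. They were WDR5 (log2 fold change -0.73, SE 0.20, adjusted p = 0.0197), TRRAP (-0.62, SE 0.20, adjusted p = 0.0381) and MXI1 (-0.64, SE 0.20, adjusted p = 0.0389, all limma). At WDR5, a subunit of histone methyltransferase complexes, fold enrichment was 18.0, 67.0 and 54.7 in CTRL and 11.5, 32.8 and 38.4 in VPA, lower in VPA within each number but overlapping between the groups. With summit fragments MXI1 alone of the 16 fell (adjusted p = 0.0166 in limma) and none rose, against 17.8% and 1.01%. The median of the 16 on that scale was -0.45, against -0.41 over all such regions, the opposite order to fold enrichment. MAX was at -0.05 (SE 0.71, adjusted p = 1.00 in limma), with fold enrichment of 6.98, 16.0 and 21.3 in CTRL and 5.43, 18.2 and 21.7 in VPA.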

How the data were processed

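ChIP-seq of H3K27ac and CTCF was analysed from 12 peak lists. The authors aligned reads to hg38 with Bowtie2 and called peaks in each library with MACS3 (version 3.0.0a7 in the submitters' processing notes). The deposited lists give the fold enrichment (a ratio) of each summit over local background, its −log10 p-value and −log10 q-value by the authors' caller, and a score that was not used here. Total reads are unknown. Summit fragments were recovered from fold and p-value, and 100% came out whole within 0.05. Other assays and 6 input libraries were not used here.

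Groups and replicate numbers came from the labels. The members and lists were chosen with earlier results of these data known. One gene of the list of MYC partners is not reported here and enters none of its counts. Named singly were regions within 1 kb of a start, regions whose library number differed by 2 or more between groups, the 3 strongest of each window and antibody, and regions past limma's threshold. Peak number and covered length per window were compared with the two-sided exact permutation test, Benjamini-Hochberg adjusted over 20 tests. For regions with a peak in all 6 libraries, log2 of the highest fold was fitted with limma 3.58.1 (R 4.3.3, eBayes with trend), adjusted over all regions of the antibody at 0.05. The fits were checked on simulated data, whose noise was independent between libraries and smaller than the spread behind the SEs given here. The check therefore does not show which changes these fits can recover in the real libraries. For H3K27ac, deviations of same-numbered libraries from the group means correlated at 0.865, 0.585 and 0.591 across regions, which was taken as pairing. However, CTRL library 2 correlated better with VPA library 3 (0.607), and CTRL library 3 correlated with VPA library 2 at 0.554. The correlations thus set number 1 apart, and numbers 2 and 3 were paired by label only. GENCODE v44 and RefSeq gave annotation and promoters.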

Additional observations from a re-analysis of the deposited data

How the results depend on the processing

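Peak lists give no read totals, and a place without a peak has no value, so weak regions near the threshold depend on list length and depth. With 3 libraries against 3, no window comparison could pass 0.05, with or without the replicate block (smallest exact permutation p 0.25 for the block). The libraries numbered 1 were left out together, and fragments joined with the block, after seeing the data.

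Differences are VPA minus CTRL. With the lists at equal lengths the H3K27ac peak number differed by -1.67 around PVT1, by -2.00 in the 2.5 Mb window, and by 0 around MYC and MYCL. The H3K27ac covered length then differed by -841 and -1062 bp in the first 2 of these. The VPA lists of H3K27ac are the longer ones, so this setting removes their weaker peaks. For CTCF at equal lengths the peak number differed by 0 around MYCL and 0.333 in the 2.5 Mb window, and the covered length around MYCL by 75.7 bp. No H3K27ac region was then found in all VPA libraries alone, and with −log10 q-values of at least 3 the number in all CTRL libraries alone was 0. With 100 kb flanks the CTCF peak number of MYCN differed by -0.333. Without both libraries numbered 1 the H3K27ac peak number of MYC differed by 0 and the CTCF covered length of MYCL by 114 bp, and 1836 H3K27ac regions were called by limma.

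With the replicate block limma called 3040 H3K27ac regions, 1 of them a member, and with summit fragments 3198, again with 1 member. With both it called 12128, of which 6 were members. The cause of these increases was not tested. CTCF stayed at 0 calls, with 598 at an unadjusted p under 0.05 in the block. Same-numbered CTCF libraries correlated at 0.340, -0.0451 and 0.477 in fold enrichment, the scale tested. The numbers were not taken as pairs there, as number 2 did not correlate best with its own. That was also so for H3K27ac, where CTRL library 2 correlated at 0.607 with VPA library 3 and at 0.585 with VPA library 2. The H3K27ac block calls thus rest on numbers that the correlations pair only for number 1. In summit fragments same-numbered CTCF libraries correlated at 0.791, 0.543 and 0.852. The block on that scale also gave 0 calls, with 603 at an unadjusted p under 0.05.

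Leaving out 1 library at a time moved differences from 0 to 0.5 (H3K27ac peak number, MYC), from 59.7 (without CTRL library 1) to 705 bp (without VPA library 1; H3K27ac covered length, MYC), from 484 (without CTRL library 1) to 2315 bp (without CTRL library 2; H3K27ac covered length, 2.5 Mb window), from -225 to 1409 bp (H3K27ac covered length, MYCN), from -2.50 to 0.5 (CTCF peak number, PVT1), from -1263 to 77.3 bp (CTCF covered length, PVT1), from -73.0 to 335 bp (CTCF covered length, MYCN), from -0.5 to 0 (CTCF peak number, MYCL), from -174 to 177 bp (CTCF covered length, MYCL), from -5.00 to 2.83 (CTCF peak number, 2.5 Mb window) and from -4663 to 2153 bp (CTCF covered length, 2.5 Mb window). Of the log2 fold changes of 25 member regions over their alternatives, 236 of 299 kept direction and side of the threshold, 8 became called, and 55 changed sign while not called.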
